A study of Homo sapiens with 9 samples.

Results

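The GET pathway, the route that delivers tail-anchored proteins to the endoplasmic reticulum (ER), was followed through 7 genes: GET3, GET1, CAMLG, GET4, UBL4A, BAG6 and SGTA. The genes were selected on the expression values of GET3, which read higher than the control under the DBC1 siRNA and lower on the arrays labelled siZNF326, and the remaining 6 were added because their proteins work with GET3. The values of GET3 are therefore a description here, and no test is given for them. Of the 7 genes, 5 had a probe set of their own (GET3, GET1, CAMLG, BAG6 and SGTA). GET4 was covered by a probe set annotated to both GET4 and its neighbour SUN1, and UBL4A had no annotated probe set and was not analysed here. The pathway is thus represented by 6 of 22011 probe sets.

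Tail-anchored proteins carry a single membrane segment at their C-terminal end, which leaves the ribosome only when translation stops, so the signal recognition particle cannot hand them to the ER membrane during synthesis. The co-chaperone SGTA shields the freed segment and passes it, with the help of a complex of BAG6, GET4 and UBL4A, to GET3, an ATPase that works as a dimer. GET3 carries the client to the ER receptor built from GET1 and CAMLG, which takes the client up and inserts it. BAG6 also sends clients that fail to reach the membrane to degradation.

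HEK293, an established human embryonic kidney line, was transfected with Stealth siRNA duplexes, which are chemically stabilised small interfering RNAs, and total RNA was taken after 48 h. The 3 groups received a control siRNA (siCTR), an siRNA against DBC1, the product of the gene CCAR2 (siDBC1), or an siRNA against ZNF326, also called ZIRD (siZNF326). Each group held 3 arrays from independent experiments, 9 in all, and all cells went through a transfection. DBC1 and ZNF326 were studied by the submitters as the subunits of the DBIRD complex in gene expression and splicing, so each comparison asks which transcripts differ when a subunit is targeted. The sequences of the siRNAs were not used here.

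The label of the siDBC1 group was borne out by its target, while the arrays could not decide this for the siZNF326 group. CCAR2 read 6.50 to 6.65 on the siDBC1 arrays and 7.67 to 7.84 on the siCTR arrays, on the log2 scale of the deposited values. ZNF326 read 5.56 to 6.12 on the arrays labelled siZNF326 and 5.25 to 5.76 on the siCTR arrays, so no drop was seen. The difference was 0.28 (limma SE 0.39), with an interval from −0.63 to 1.20. Each siCTR value lay below the median of its array. This dim and variable probe set therefore cannot decide whether the transcript was lowered. On the siDBC1 arrays ZNF326 read 5.64 to 7.32, and the difference of siZNF326 from siDBC1 was −0.57, with overlapping arrays. The name siZNF326 is used below for those arrays as a label only. Of 7 transcripts typical of HEK293 (KRT8, KRT18, VIM, NEFL, NEFM, INA, PAX2), 6 lay above the array median on all 9 arrays. NEFM (5.46 to 8.17) did so on 8, and PAX2 read only 5.95 to 6.02. Of 8 markers of blood, fibroblasts, endothelium and liver, 6 lay below it on all 9, and CD68 (6.23 to 6.38) and COL1A1 (6.40 to 6.73) lay above it. Array medians ran from 5.58 to 5.90. The siDBC1 replicates 2 and 3 stood apart within their group. Their mean correlations to the other arrays of the group across probe sets were 0.970 and 0.969, against 0.988 for each siCTR array. Over all arrays the lowest mean correlations were those of siDBC1 replicate 2, siZNF326 replicate 1 and siDBC1 replicate 3, in that order. The highest array median was that of siZNF326 replicate 1. Values without the 2 siDBC1 arrays are given for the siDBC1 differences they moved most. Values without siZNF326 replicate 1 are given for several siZNF326 differences.

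The table lists 2 starts for GET3 and 3 for GET1, and the stretch of 250 bases upstream of the outermost start is printed for GET3, the carrier, and GET1, its receptor, because these were the members whose mean lay on opposite sides of the control in siDBC1 and siZNF326, in mirrored directions. Both come from the RefSeq promoter table on GRCh38.p14, plus strand, at chr19:12736856-12737105 for GET3 and chr21:39380076-39380325 for GET1, and are written 5′ to 3′. Capitals mark a GC box (GGGCGG) or a CCAAT box (CCAAT, here as its reverse complement).
GET3: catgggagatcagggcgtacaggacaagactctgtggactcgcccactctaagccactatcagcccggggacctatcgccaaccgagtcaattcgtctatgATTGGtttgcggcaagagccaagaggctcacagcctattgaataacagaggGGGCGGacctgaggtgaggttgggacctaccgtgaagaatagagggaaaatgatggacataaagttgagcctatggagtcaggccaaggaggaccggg
GET1: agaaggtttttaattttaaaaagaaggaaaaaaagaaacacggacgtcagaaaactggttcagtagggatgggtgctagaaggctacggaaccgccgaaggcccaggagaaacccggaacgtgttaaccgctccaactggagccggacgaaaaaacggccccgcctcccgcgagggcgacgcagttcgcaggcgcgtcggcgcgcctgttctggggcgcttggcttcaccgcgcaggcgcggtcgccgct
In the GET3 window the CCAAT box began 149 bases and the GC box 98 bases before the start, and they did not overlap. This GET1 window held neither. The windows of the other starts differ: a GC box stood 38 bases before one further GET1 start, and neither motif before the other GET3 start. Of 35116 windows of this length in the table, 32.0% held a CCAAT box and 42.6% a GC box on either strand. The motif TGATGNAA, a core of the element that ATF4 and C/EBP factors bind in stress response genes, was found in neither window and in 3.14% of all windows. The TATA box (TATAAA) was in 10.7% of all windows and the E-box (CACGTG) in 6.34%, and neither was in the printed windows, while both were before the other GET3 start, at 126 and 10 bases. The matches describe letters in these windows and say nothing about what binds there.

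GET3, the ATPase that carries tail-anchored clients, stood in 3 separate bands of expression. It read 8.29, 8.37 and 8.45 on the siCTR arrays, 8.82, 8.70 and 8.86 on the siDBC1 arrays, and 7.71, 7.61 and 7.44 on the siZNF326 arrays. Every siDBC1 array lay above every siCTR array, every siZNF326 array lay below them, and no ranges met. The group means were 8.37 ± 0.084, 8.79 ± 0.087 and 7.59 ± 0.14 (SD, n = 3 each). The mean was thus 0.42 higher in siDBC1 than in siCTR (1.34-fold) and 0.78 lower in siZNF326 (1.72-fold), where a log2 difference of 1 is a doubling. These are bulk RNA values, in which fewer cells of a kind and less RNA per cell cannot be told apart.

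Between siZNF326 and siDBC1 the means of GET3 were 1.21 apart, 2.31-fold lower in siZNF326, and 61 of 22011 probe sets had a larger difference of either sign. This contrast holds the same arrays that chose GET3, and nothing is read from it. The pattern of GET3, higher on all siDBC1 arrays and lower on all siZNF326 arrays than on any siCTR array, was shared by 21 of 22011 probe sets (0.0954%). The mirror pattern was found in 36 (0.164%), and siDBC1 and siZNF326 on the same side of the control in 861 (3.91%). GET3 was chosen for its opposite directions in the 2 groups, so the share with its pattern is a description and nothing is read from it. Both groups are set against the same control arrays, so the other 2 shares are descriptions as well. The spread of GET3 within groups was small, with a residual SD of 0.10 against a median of 0.21 over all probe sets. Without siDBC1 replicate 2 or 3 the difference of GET3 from siCTR in siDBC1 was 0.47 or 0.39.

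**Figure D1:**
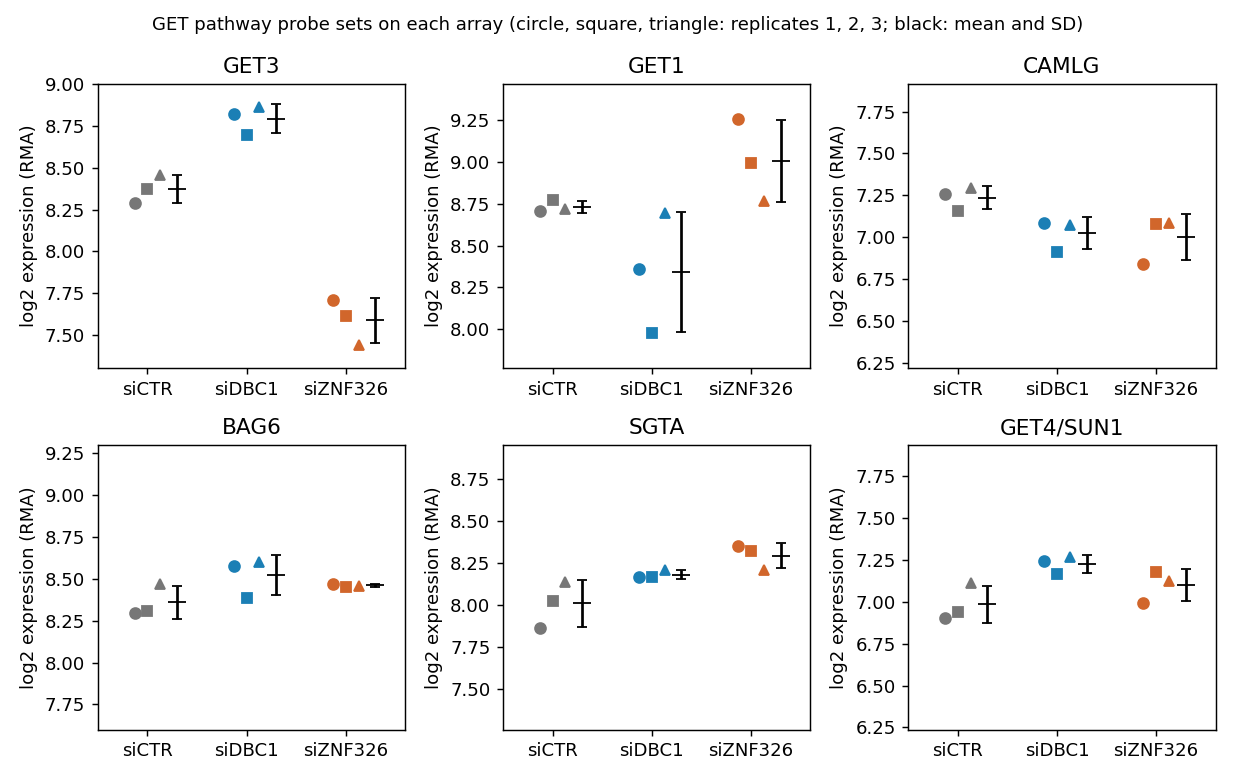
Log2 expression of the 6 GET pathway probe sets on each of 9 arrays, by siRNA group, with each group's mean and SD in black; all panels span the same number of log2 units. GET3 forms 3 separate bands, from 7.44 to 7.71 in siZNF326, 8.29 to 8.45 in siCTR and 8.70 to 8.86 in siDBC1, while the groups of BAG6 overlap.

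Neither receptor subunit followed GET3 in both groups, and neither passed the test. GET1, the membrane subunit that docks GET3 and forms the insertion site with CAMLG, read 8.71, 8.77 and 8.72 on the siCTR arrays. It read 8.36, 7.98 and 8.69 on the siDBC1 arrays and 9.26, 8.99 and 8.77 on the siZNF326 arrays. All siDBC1 arrays lay below all siCTR arrays, replicate 3 by little, and all siZNF326 arrays lay above the siCTR mean, with the lowest of them (8.769) just under the highest siCTR array (8.771). Its mean thus lay on the opposite side of the control from that of GET3 in both groups.

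The differences of GET1 were −0.39 in siDBC1 (SE 0.19, limma adjusted p = 0.874) and 0.27 in siZNF326 (SE 0.19, adjusted p = 0.714), with 95% intervals from −0.83 to 0.055 and from −0.17 to 0.72. Between siZNF326 and siDBC1, GET1 stood 0.66 higher (SE 0.19, 1.58-fold), above in all 3 arrays without overlap. That contrast had an interval from 0.22 to 1.11 and an unadjusted p of 0.00886, but an adjusted p of 0.608 over all probe sets. GET1 was the most variable member, with a residual SD of 0.25. The siDBC1 difference was −0.20 without siDBC1 replicate 2 and −0.56 without replicate 3, and that of siZNF326 was 0.15 without siZNF326 replicate 1. After quantile normalization the differences were −0.38 in siDBC1 and 0.18 in siZNF326 (SE 0.10 each), and neither passed. Within siDBC1 and within siZNF326 the GET1 values ranked as the array medians did, and a link between them was not tested.

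CAMLG, the other receptor subunit and the counterpart of yeast Get2, was the member with a lower mean in both siDBC1 and siZNF326. It read 7.25, 7.16 and 7.29 on the siCTR arrays, 7.09, 6.91 and 7.07 on the siDBC1 arrays and 6.84, 7.08 and 7.09 on the siZNF326 arrays. Neither group overlapped the control. The differences were −0.21 (SE 0.096, adjusted p = 0.839) and −0.23 (SE 0.096, adjusted p = 0.556), or 1.16-fold and 1.18-fold, and neither passed. The latter was −0.15 without siZNF326 replicate 1 and −0.37 after quantile normalization, and passed in neither. Between siZNF326 and siDBC1 CAMLG differed by −0.022, with an interval from −0.24 to 0.20.

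On each array, the log2 level of GET3 minus that of GET1 shifted from its siCTR mean by 0.53 to 1.08 on the siDBC1 arrays and by −1.19 to −0.97 on the siZNF326 arrays. On the siCTR arrays it stayed between −0.060 and 0.098. The same difference of GET3 and CAMLG shifted by 0.60 to 0.65 and by −0.78 to −0.27. Each of these differences contains GET3, whose values chose the pathway, so no test is given.

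The factors that act before GET3 had small differences, and none passed. SGTA, which first shields the membrane segment, read 7.86, 8.03 and 8.14 on the siCTR arrays, 8.17, 8.16 and 8.21 on the siDBC1 arrays and 8.35, 8.32 and 8.21 on the siZNF326 arrays. Both groups lay above all siCTR arrays. The differences were 0.17 (SE 0.089, adjusted p = 0.892) and 0.29 (SE 0.089, adjusted p = 0.390), the latter with an interval from 0.079 to 0.49. The first was 0.098 without siCTR replicate 1, and the second 0.16 after quantile normalization.

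BAG6, the scaffold of the pretargeting complex, read 8.30, 8.31 and 8.47 in siCTR, 8.58, 8.39 and 8.60 in siDBC1 and 8.47, 8.45 and 8.46 in siZNF326. Its groups overlapped in every comparison. The differences from siCTR were 0.16 (SE 0.087, adjusted p = 0.904) and 0.10 (SE 0.087, adjusted p = 0.762). The latter became −0.0092 after quantile normalization.

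The probe set of GET4, which links BAG6 and UBL4A to GET3, also measures SUN1, a nuclear envelope protein, and the 2 transcripts cannot be told apart. It read 6.90, 6.94 and 7.11 in siCTR, 7.24, 7.17 and 7.27 in siDBC1 and 6.99, 7.18 and 7.13 in siZNF326. The siDBC1 arrays lay above the control without overlap, by 0.24 (SE 0.087, adjusted p = 0.731). The siZNF326 arrays overlapped it, with a difference of 0.12 (SE 0.087, adjusted p = 0.733) that became −0.033 after quantile normalization.

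Over the 5 probe sets other than GET3, limma called 0 in each of the 3 comparisons, against a background of 0.0363%, 0.15% and 0.00909% of probe sets. At an unadjusted p below 0.05 there was 1 in siDBC1 (GET4/SUN1), 2 in siZNF326 (CAMLG and SGTA) and 1 between the 2 groups (GET1), where the background was 6.18%, 8.65% and 7.31%. Arrays did not overlap between siDBC1 and siCTR for 4 of the 5 (all but BAG6), 2 higher and 2 lower, beside 8.84% of all probe sets. That share is over probe sets with a median residual SD of 0.21, while CAMLG, GET4/SUN1 and SGTA had 0.11, 0.090 and 0.093. For siZNF326 against siCTR this held for 2 (CAMLG lower and SGTA higher), beside 18.2%, and between siZNF326 and siDBC1 for 1 (GET1), beside 9.45%. The median difference of the 5 was 0.16 in siDBC1 and 0.12 in siZNF326, beside 0.014 and 0.032 over all probe sets. For the 5123 probe sets whose mean was at least that of the dimmest member, the median in siZNF326 was 0.091, which quantile normalization moved to −0.014. Missing the threshold does not show that these transcripts were equal, and the intervals above give the sizes the arrays allow.

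**Figure D2:**
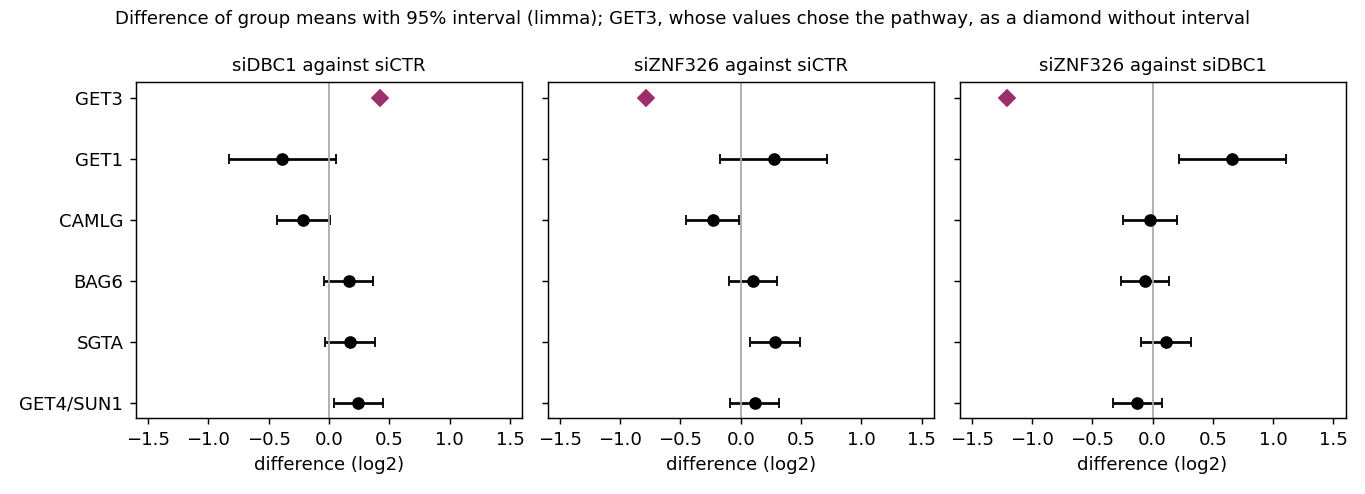
Difference of group means on the log2 scale (horizontal axis) for the 6 probe sets in the 3 comparisons, with the 95% interval of the limma fit except for GET3, which is a diamond. GET3 lies at 0.42, −0.78 and −1.21, GET1 on the opposite side at −0.39, 0.27 and 0.66, and the other members lie within 0.29 of 0.

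Genes that work beside the pathway were counted in 5 lists, and limma called 0 of their measured genes in any comparison. Over all probe sets 53.8% had a mean above siCTR in siDBC1 and 56.6% in siZNF326, and 6.18% and 8.65% an unadjusted p below 0.05. The counts below are to be read beside these shares, which include dim probe sets, while list genes were taken at their brightest one. In siZNF326 the 5123 probe sets at least as bright as the dimmest member had a median of 0.091, against 0.032 for all. List counts after quantile normalization are not given. Of the accessory factors of GET3 and BAG6, 8 of 10 were measured. In siDBC1 4 were above and 4 below siCTR (median −0.036, 1 at an unadjusted p below 0.05), and in siZNF326 7 were above and 1 below (median 0.30, 0 at that p). RNF115, a ubiquitin ligase related to the BAG6 partner RNF126, read 6.07 to 6.35 in siCTR, 5.22 to 6.51 in siDBC1 and 6.57 to 6.95 in siZNF326. It stood 0.91 higher in siZNF326 than in siDBC1 (SE 0.29, adjusted p = 0.645), and 0.57 without siDBC1 replicate 2. SGTB, the paralog of SGTA, differed by −0.35 in siDBC1 (−0.16 without siDBC1 replicate 2) and 0.45 in siZNF326 (0.26 without siZNF326 replicate 1), with adjusted p = 0.645 between them. The ubiquitin-binding chaperone UBQLN2 differed by −0.27 in siZNF326 (adjusted p = 0.618), and the chaperone HSPA8 by 0.18 in siDBC1 (adjusted p = 0.793).

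The ER membrane protein complex (EMC) inserts tail-anchored proteins with less hydrophobic segments. Of its 10 genes 9 were measured, 6 above and 3 below siCTR in siDBC1 (median 0.048, 1 at an unadjusted p below 0.05) and 7 above and 2 below in siZNF326 (median 0.091, 0 at that p). EMC1, its large luminal subunit, differed by −0.52 in siDBC1 (SE 0.21, adjusted p = 0.783), below all siCTR arrays, or −0.28 without siDBC1 replicate 2. Its siZNF326 difference was −0.073 (adjusted p = 0.929) and turned to 0.047 without siCTR replicate 3. EMC6, part of its membrane core, differed by 0.37 in siZNF326 (adjusted p = 0.668), or 0.20 without siZNF326 replicate 1. MMGT1, EMC3, EMC4 and EMC8 lay between 0.043 and 0.20 in siDBC1 and between 0.091 and 0.23 in siZNF326. Without siDBC1 replicate 3 the first range was −0.084 to 0.018, and without siZNF326 replicate 1 the second was −0.032 to 0.092. Omitting siDBC1 replicate 2 moved EMC3 the other way, from 0.18 to 0.46 in siDBC1.

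The routes that serve proteins with other signals had 13 of 16 genes measured. Of them 9 were above siCTR in siDBC1 (median 0.16, 0 at an unadjusted p below 0.05) and 10 in siZNF326 (median 0.20, 2 at that p). SEC61A1, the channel of the translocon, read 8.78, 8.68 and 8.96 in siCTR and 9.28, 9.22 and 9.40 in siZNF326, a difference of 0.49 (SE 0.13, adjusted p = 0.314). SRPRA, a subunit of the receptor for the signal recognition particle, differed by 0.47 there (adjusted p = 0.488), and SEC61A2 by 0.54 (adjusted p = 0.616), or 0.29 without siZNF326 replicate 1. All 3 lay above every siCTR array without passing, as did TMCO1, at 0.39. These were 4 of the 13 measured genes, where 18.2% of all probe sets had no overlap in either direction. SEC63, SRP72 and TMEM208 differed by −0.52, −0.46 and 0.26 in siDBC1 (adjusted p = 0.911, 0.951 and 0.926). Without siDBC1 replicate 2 those of SEC63 and SRP72 were −0.23 and −0.10, and without replicate 3 they were −0.80 and −0.83. The difference of TMEM208 was 0.14 without siDBC1 replicate 3 and was also smaller without siCTR replicate 1.

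Among transcripts of tail-anchored proteins of the ER and secretory path, a class that includes clients of the route, 31 of 39 were measured. In siDBC1 14 were above and 17 below siCTR (median −0.010, 5 at an unadjusted p below 0.05), and in siZNF326 26 were above and 5 below (median 0.13, 5 at that p). HMOX1, the heme oxygenase anchored in the ER, read 6.21, 6.72 and 6.66 in siCTR, 7.17, 7.04 and 7.47 in siDBC1 and 7.34, 7.52 and 7.43 in siZNF326. Both groups lay above the control, by 0.69 (SE 0.16, adjusted p = 0.423) and 0.90 (SE 0.16, adjusted p = 0.112). STX4, a SNARE of the plasma membrane, lay above the control in both as well, by 0.45 and 0.38 (adjusted p = 0.628 and 0.503).

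Other SNAREs lay on different sides of the control. BET1, of transport between ER and Golgi, stood at −0.65 from the control in siDBC1 (SE 0.19, adjusted p = 0.573), or −0.43 without siDBC1 replicate 2, and at −0.071 in siZNF326. VAMP4, of the trans-Golgi network, stood at −0.51 in siDBC1 (adjusted p = 0.783), or −0.31 without siDBC1 replicate 2, and at 0.11 in siZNF326. VAMP8, an endosomal SNARE, and EMD, emerin of the inner nuclear membrane, differed by 0.51 and 0.49 in siZNF326 (adjusted p = 0.369 and 0.355). STX18, an ER SNARE, stood 0.25 higher in siZNF326 than in siDBC1 (adjusted p = 0.698), or 0.15 without siDBC1 replicate 2.

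Of the tail-anchored proteins outside the ER 8 of 12 were measured, all of them mitochondrial. In siDBC1 6 were above siCTR (median 0.13, 0 at an unadjusted p below 0.05), and in siZNF326 5 (median 0.18, 2 at that p). TOMM22 and TOMM7, parts of the import channel of the outer membrane, differed by 0.46 and 0.34 in siZNF326 (adjusted p = 0.508 and 0.419), and CYB5B by 0.47 (adjusted p = 0.609). Without siZNF326 replicate 1 the differences of TOMM7 and CYB5B were smaller, that of CYB5B at 0.28. RHOT2, a mitochondrial GTPase, stood 0.25 lower in siZNF326 than in siDBC1 (adjusted p = 0.608), and FIS1 differed by 0.19 in siDBC1 (adjusted p = 0.928), or 0.097 without siCTR replicate 2 and 0.11 without siDBC1 replicate 3. The medians of all 5 lists in siZNF326 were positive, as was the 0.032 of all probe sets, which became −0.039 after quantile normalization.

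**Figure D3:**
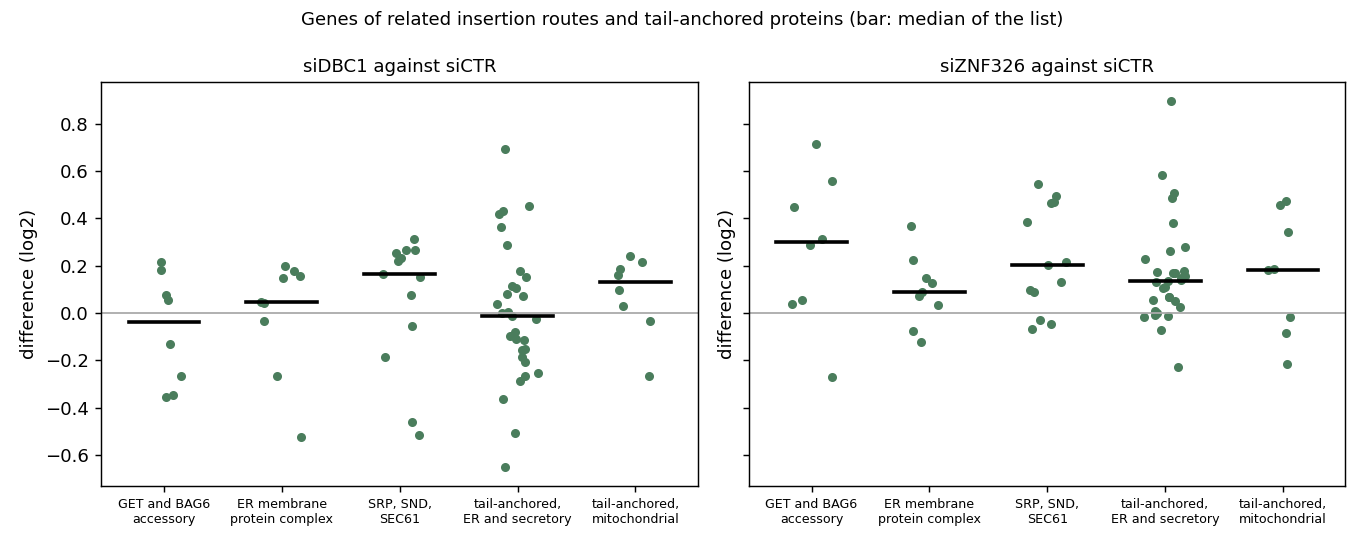
Difference from siCTR on the log2 scale for each measured gene of the 5 lists (points), in siDBC1 and in siZNF326, with the median of each list as a bar. The points of every list lie on both sides of 0, and the highest point in siZNF326 is HMOX1 at 0.90.

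The profiles nearest to that of GET3 were sought over the 9 arrays among 14431 other probe sets with 1 gene symbol, as the smallest Euclidean distance between log2 profiles centred on their own means. SDCBP, the scaffold protein syntenin, was nearest at a distance of 0.35, where the median probe set was at 1.62 and a flat profile would be at 1.52. It read 8.69 ± 0.015 in siCTR, 8.95 ± 0.20 in siDBC1 and 7.93 ± 0.19 in siZNF326 (SD, n = 3 each). TTLL12 followed at 0.54, CSTB, the protease inhibitor cystatin B, at 0.63, and RAB38, a GTPase of lysosome-related organelles, at 0.67. MGC34796 was at 0.69, ESYT1, which tethers the ER to the plasma membrane, at 0.71, STUB1, a ubiquitin ligase that works with chaperones, at 0.75, and MRPS16, of the mitochondrial ribosome, at 0.76.

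These 8 were picked for their likeness, so their values describe the pick. The differences of their means from siCTR lay between 0.033 and 0.55 for the siDBC1 arrays and between −0.76 and −0.30 for siZNF326. CSTB had the largest difference of them in siDBC1, 0.55, and SDCBP the largest in siZNF326, −0.76. No other GET pathway member was among them: GET4/SUN1 was nearest at 1.45 and GET1 farthest at 2.34, where a flat profile would be at 1.52. The share of all probe sets nearer to GET3 was 16.6% for GET4/SUN1, 22.8% for BAG6, 26.4% for CAMLG, 56.7% for SGTA and 90.6% for GET1.

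**Figure D4:**
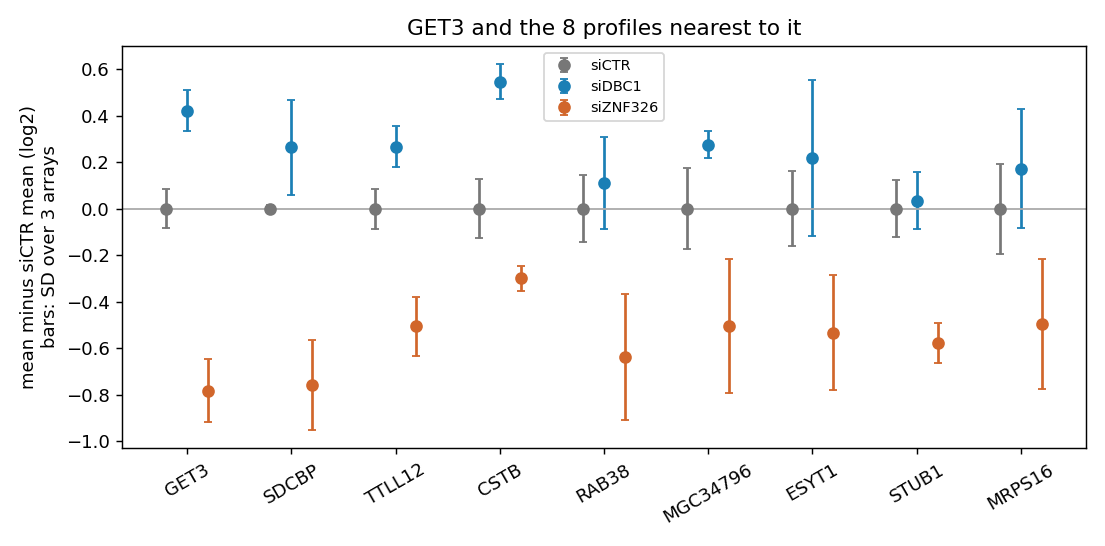
Group means relative to siCTR on the log2 scale, with SD over 3 arrays, for GET3 and the 8 probe sets whose profiles were nearest to it. All 9 have a siDBC1 mean above and a siZNF326 mean below the control, from −0.30 for CSTB to −0.78 for GET3 in siZNF326.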

How the data were processed

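Total RNA of HEK293 cells was extracted on columns with DNase treatment, reduced in ribosomal RNA and labelled with the Affymetrix whole-transcript protocol, per the labels' protocols. The authors deposited log2 values made with RMA, per the submitters' processing notes, which name build hg18. Version and filters are not given in the sources used here. Levels near background were not marked. Precision is limited by 3 arrays per group.

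Of 22011 probe sets, 14432 had 1 gene symbol, 2408 several and 5171 none. Symbols were matched through gene identifiers and 0 changed. A model with 3 groups was fitted to all probe sets without filter (limma 3.58.1 in R 4.3.3, checked on simulated data), with two-sided moderated tests, Benjamini-Hochberg adjustment within each of 3 comparisons and calls at an adjusted p below 0.05. Lists were described on the brightest probe set per gene, with no set test. Named genes were the members, the 3 smallest p per list and comparison, the 8 nearest profiles, and CCAR2 and ZNF326. Members and lists were chosen with earlier results of these data known. Alternatives were quantile normalization, median centring, 2 groups only, a replicate block, a trended robust prior, a filter on low means and omission of each array.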

Additional observations from a re-analysis of the deposited data

Results flagged for a closer look

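GET3 and GET1 were the members for which every siDBC1 array and every siZNF326 array lay on opposite sides of the siCTR mean. On the log2 scale the distance from siCTR was 0.42 in siDBC1 and −0.78 in siZNF326 for GET3, and −0.39 and 0.27 for GET1. For GET3 the values chose the pathway, so no test of the difference is given, and it counts here as not tested. For GET1 it was 0.66 higher in siZNF326 than in siDBC1, in 3 of 3 arrays, and did not pass (limma adjusted p = 0.608, from 0.123 to 1 over the alternatives). The values of single genes were not searched for outlying arrays, since each group holds only 3.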

How the results depend on the processing

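Under the 15 alternatives per comparison, limma called 0 of the 5 member probe sets other than GET3, with 0 to 3 at an unadjusted p below 0.05 in siDBC1, 1 to 2 in siZNF326 and 1 between siZNF326 and siDBC1. The filter on low means kept all 6 member probe sets. GET3 kept its direction throughout: 0.38 to 0.47 in siDBC1, −0.91 to −0.71 in siZNF326 and −1.32 to −1.13 between siZNF326 and siDBC1. Of 270 values of single members under an alternative, 6 changed sign. After quantile normalization BAG6 and GET4/SUN1 stood at −0.0092 and −0.033 in siZNF326, and SGTA at −0.012 between siZNF326 and siDBC1. CAMLG ran from −0.078 to 0.058 between siZNF326 and siDBC1 when single arrays were left out.

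Counts of called probe sets moved more, and the cause was not tested. From 8 in siDBC1 they went to 69 after quantile normalization, 46 with arrays centred, 0 with only the 2 groups compared (1100 at an unadjusted p below 0.05), 0 with a replicate block (1360 at that p) and 4 with a trended robust prior. From 33 in siZNF326 they went to 196, 119, 5 and 1 under the first 4 of these, and to 68 with the filter on low means. Their split into higher and lower was 20 and 13, against 89 and 107 after quantile normalization and 57 and 62 with arrays centred. From 2 between siZNF326 and siDBC1 they went to 28, 9, 0 (1118 at that p) and 0 (1769 at that p). The split of these was 1 and 1, against 18 and 10 after quantile normalization. Omitting single arrays gave 0 to 4, 1 to 64 and 0 to 1 calls. The count was 0 for siDBC1 when siCTR replicate 2 (979 at that p), siDBC1 replicate 1 (1048) or siZNF326 replicate 3 (1194) was omitted, and 0 between siZNF326 and siDBC1 when siZNF326 replicate 3 was (1290). For siZNF326 it reached 64 when siDBC1 replicate 2 was omitted, stood at 26 for the omission of replicate 3 of that group and was at most 3 for any other array. Deviations of same-numbered arrays from their group means correlated between −0.30 and 0.40. Arrays of different numbers were not compared in this way, so whether replicate numbers pair the arrays cannot be decided here.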
